A study of Mus musculus with 6 samples.

Results

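The guanylate-binding proteins (GBPs) and the immunity-related GTPases (IRGs) were followed through 10 genes of mouse dendritic cells, Gbp2, Gbp3, Gbp4, Gbp5, Gbp7, Irgm1, Irgm2, Igtp, Iigp1 and Ifi47. They were taken by name from a table of 23398 genes, and each of the 10 names occurred in it. The cells had been grown from mouse bone marrow, and 3 libraries came from cells given vehicle and 3 from cells given Ca(OH)2 nanoparticles, all of them for 12 hours. Strain, age, sex and nanoparticle dose are not given in the sources used here. Nor is it said whether the 3 libraries of a group came from separate animals or cultures, so p-values measure the spread between these libraries, which may be technical. In RNA from whole cultures, fewer cells of a type and less RNA per cell cannot be told apart.

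GBPs and IRGs are large GTPases that cells make in response to interferons, most strongly to interferon-gamma. They gather on the vacuoles of intracellular microbes and on bacterial membranes. Some of them help to break those membranes, and GBPs also take part in caspase-11 signalling by bacterial lipopolysaccharide. Among the IRGs, Irgm1, Irgm2 and Igtp (also called Irgm3) form the regulatory branch, which keeps the effector IRGs, such as Iigp1 (Irga6), inactive on the cell's own membranes. Promoters of interferon-induced genes often hold an interferon-stimulated response element (ISRE), bound by interferon regulatory factors, or a gamma-activated site (GAS), an element of the interferon-gamma response.

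RefSeq promoter windows on mouse build GRCm38.p6 were matched by symbol for 8 of the 10 members. Gbp4 and Iigp1 were not matched. Within the 250 bases before the annotated start, 2 sequence cores were searched on both strands and counted as descriptions of sequence, not as bound sites. The ISRE core was GAAA, any 2 bases and GAAA again, and the GAS core was TTCNNNGAA. The ISRE core was found in 7 of the 8 genes, and the GAS core in 4 (Gbp5, Gbp7, Irgm2 and Igtp). Of all 32851 windows of this length, 2.98% held the ISRE core and 7.02% the GAS core. Counted by gene, 3.46% and 8.13% of 27025 genes held them in any window. Gbp3 had 2 windows, and window 2 held neither core. No ISRE match overlapped a GAS match in the members. Ifi47 held neither core, which says only that these letters are not in its window. The windows of 6 members follow, from 5′ to 3′ on the gene's strand with each match in capitals, because they include members with large and small changes and the neighbours Igtp and Irgm2.
Gbp2, chr3:142620413-142620662, plus strand: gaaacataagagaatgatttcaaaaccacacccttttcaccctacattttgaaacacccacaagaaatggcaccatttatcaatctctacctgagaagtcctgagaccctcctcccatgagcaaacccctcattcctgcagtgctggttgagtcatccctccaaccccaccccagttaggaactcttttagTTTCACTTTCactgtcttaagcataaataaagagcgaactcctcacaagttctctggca
Gbp5, chr3:142496684-142496933, plus strand: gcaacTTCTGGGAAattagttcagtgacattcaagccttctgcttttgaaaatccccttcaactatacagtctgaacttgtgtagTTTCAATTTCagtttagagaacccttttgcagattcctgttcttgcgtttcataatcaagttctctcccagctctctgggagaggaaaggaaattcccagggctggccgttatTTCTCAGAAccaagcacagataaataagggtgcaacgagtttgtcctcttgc
Gbp7, chr3:142530086-142530335, plus strand: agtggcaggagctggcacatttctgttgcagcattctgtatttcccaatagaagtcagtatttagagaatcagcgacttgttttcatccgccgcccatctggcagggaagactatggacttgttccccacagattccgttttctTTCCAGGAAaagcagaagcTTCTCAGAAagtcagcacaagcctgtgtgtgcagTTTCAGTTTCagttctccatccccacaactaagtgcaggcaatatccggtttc
Igtp, chr11:58199306-58199555, plus strand: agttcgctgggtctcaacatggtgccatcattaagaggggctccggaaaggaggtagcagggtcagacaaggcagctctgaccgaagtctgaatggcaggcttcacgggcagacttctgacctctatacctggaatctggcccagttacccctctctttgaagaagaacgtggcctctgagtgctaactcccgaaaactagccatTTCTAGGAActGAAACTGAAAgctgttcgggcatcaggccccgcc
Irgm2, chr11:58214727-58214976, plus strand: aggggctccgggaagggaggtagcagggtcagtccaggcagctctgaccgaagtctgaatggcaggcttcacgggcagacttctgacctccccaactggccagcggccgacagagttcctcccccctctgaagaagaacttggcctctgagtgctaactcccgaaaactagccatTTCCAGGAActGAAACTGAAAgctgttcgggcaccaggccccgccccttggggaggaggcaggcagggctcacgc
Ifi47, chr11:49076337-49076586, plus strand: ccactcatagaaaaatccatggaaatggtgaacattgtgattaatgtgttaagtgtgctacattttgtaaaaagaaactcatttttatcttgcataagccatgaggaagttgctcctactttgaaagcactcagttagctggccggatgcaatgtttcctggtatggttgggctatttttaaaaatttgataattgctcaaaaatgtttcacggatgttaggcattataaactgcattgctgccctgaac
In Gbp2 and Gbp5 the ISRE core ended 49 and 155 bases before the start. In Igtp and Irgm2 a GAS core was followed by an ISRE core with 2 bases between them, at 24 bases (Igtp) and 54 bases (Irgm2) before the start. Gbp7, the member with the smallest change, carried an ISRE core 43 bases before its start and 2 GAS cores. For Gbp7 and Irgm2, the bases after the RefSeq start were not found in a GENCODE M21 transcript of the gene. Their distances hold for the RefSeq start only.

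Expression values were read as FPKM, read fragments per kilobase of gene relative to a library scale, a unit inferred from the values. The genes whose values all became whole numbers of reads held 16026802 to 20206879 reads per library. Of the dendritic cell markers, Itgax, which encodes CD11c, was at 442 to 456 FPKM and the MHC class II gene H2-Ab1 at 982 to 1035 FPKM in vehicle, whereas Zbtb46 (3.66 to 4.15 FPKM), Cd209a (5.17 to 6.21 FPKM), Clec10a (5.63 to 7.62 FPKM), Ccr7 (1.75 to 2.62 FPKM) and Fscn1 (2.23 to 4.18 FPKM) were low. Flt3, a receptor of other dendritic cell types, did not exceed 0.0793 FPKM in any library. Macrophage markers were present too, with Cd68 at 294 to 304 FPKM, C1qb at 256 to 325 FPKM and Csf1r at 158 to 159 FPKM in vehicle. Nanoparticle library 1 stood apart. Across genes, which are no independent replicates, its log2 values correlated at 0.942 and 0.928 with nanoparticle libraries 2 and 3, against 0.990 between these. The summed FPKM of 11 dendritic cell markers was 3901 there, below the 7188 to 7662 of vehicle and the 8565 and 9281 of nanoparticle libraries 2 and 3. Results are therefore also given without this library. All values of a nanoparticle library together summed to more FPKM than those of a vehicle library, and scaling each library to the same sum gave the tested genes a median log2 change of -0.44, so small changes depend on the scaling.

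The members were higher with nanoparticles in every library, and their groups did not overlap for any of the 10. Among all tested genes, 25.9% had nanoparticle libraries that all lay above the vehicle libraries. The test was limma on log2(FPKM + 1), with Benjamini-Hochberg adjustment over the 10682 genes that reached 1 FPKM in 3 or more libraries. In it 9 members rose past an adjusted p of 0.05 and 0 fell, whereas 17.0% of all tested genes rose and 16.2% fell, 33.2% in all. The exception was Gbp4. Without nanoparticle library 1, 10 members rose, against 34.3% of all tested genes. The median log2 change of the members was 3.26, and 2.76 without that library, where the medians of all tested genes were -0.0010 and 0.021. A log2 change above 2 was found in 9 members, all but Gbp7, and in 2.92% of the tested genes. Gbp4 and Iigp1, under 1 FPKM in each vehicle library, passed the filter on low values only through the nanoparticle libraries, in which they are high.

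**Figure D1:**
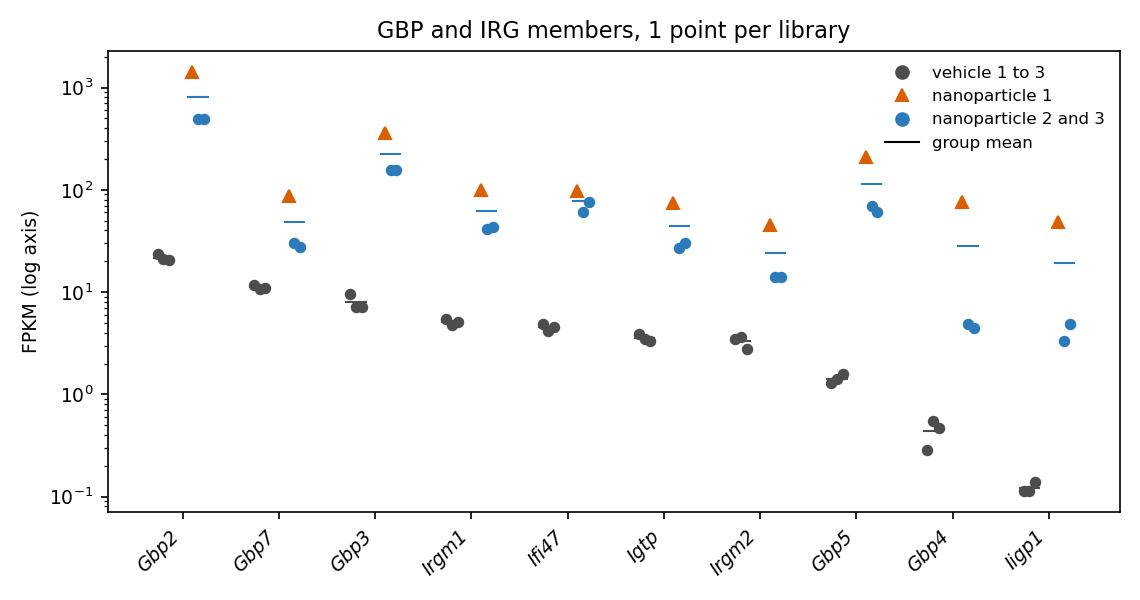
FPKM of each member (log axis) in each library, with grey circles for the 3 vehicle libraries, an orange triangle for nanoparticle library 1, blue circles for nanoparticle libraries 2 and 3, and lines for group means. Every nanoparticle library lies above every vehicle library for each gene, and nanoparticle library 1 is the highest library for each, from 1.43 times the mean of nanoparticle libraries 2 and 3 (Ifi47) to 16.3 times (Gbp4).

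Gbp2, a GBP that is recruited to bacterial and parasite vacuoles, was the most abundant member in every library. It was at 23.5, 21.2 and 20.4 FPKM in vehicle libraries 1 to 3 and at 1427, 495 and 489.5 FPKM in nanoparticle libraries 1 to 3. The nanoparticle libraries were all far above vehicle, with library 1 at 2.90 times the mean of the others. Its log2 change was 4.96 (95% interval 3.94 to 5.97, limma adjusted p = 4.45e-04), and 4.44 (SE 0.0694) without nanoparticle library 1. Gbp3, which shares more sequence with Gbp7 than with any other gene, was at 9.64, 7.20 and 7.20 FPKM in vehicle and at 359, 156 and 155 FPKM with nanoparticles. It rose by 4.53 on the log2 scale (SE 0.345, limma adjusted p = 3.03e-04), and by 4.13 without library 1. As for Gbp2, nanoparticle library 1 was highest and libraries 2 and 3 were nearly equal.

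Gbp5, which promotes inflammasome assembly, had the largest log2 change of the members. Vehicle libraries held 1.29, 1.42 and 1.57 FPKM and nanoparticle libraries 212, 70.1 and 60.7 FPKM. The change was 5.33 (95% interval 4.23 to 6.44, limma adjusted p = 4.56e-04), 4.77 without nanoparticle library 1, and it ranked 30 among 10682 tested genes. In nanoparticle libraries 2 and 3 the mean was 45.9 times that of vehicle, the largest such ratio among the members. By level, Gbp5 was 8th of the 10 members in each vehicle library and 3rd or 4th in each nanoparticle library.

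Gbp7, which has been tied to NADPH oxidase assembly, changed least. It was at 11.7, 10.6 and 10.9 FPKM in vehicle, 2nd of the members, and at 87.8, 30.4 and 27.6 FPKM with nanoparticles, where it was 6th or 7th. The log2 change was 1.83 (95% interval 0.80 to 2.86, limma adjusted p = 0.0185), and 1.31 (adjusted p = 1.89e-05) without nanoparticle library 1. Its call was lost when any vehicle library was left out (limma adjusted p = 0.0616 to 0.0675 over these 3 fits) and when libraries were scaled to the same sum (0.0523), and over all alternatives the adjusted p ran from 9.40e-06 to 0.0675. A share of 12.7% of its 50-base stretches also occurs in transcripts of other genes, most of them in Gm43802, so part of its value is uncertain.

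Gbp4 was low in vehicle, at 0.288, 0.545 and 0.473 FPKM, which correspond to 43, 81 and 74 reads. Nanoparticle libraries 2 and 3 held 4.85 and 4.45 FPKM, whereas library 1 held 75.8 FPKM, 16.3 times their mean. The spread within the nanoparticle group left the log2 change of 3.24 (SE 1.00, 95% interval 0.81 to 5.66) just outside the threshold (limma adjusted p = 0.0502). Without nanoparticle library 1 it was 1.98 (SE 0.111, limma adjusted p = 2.02e-05). The adjusted p was also under 0.05 without nanoparticle library 3 (0.0432), with a pseudocount of 0.1 (0.0216) and when libraries were scaled to the same sum (0.0357), and over all its alternatives it ran from 2.02e-05 to 0.139. As a ratio of mean FPKM, nanoparticle libraries 2 and 3 lay 10.7-fold above vehicle, more than the log2(FPKM + 1) scale shows for so low a gene.

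The regulatory IRGs rose in all 3 cases. Irgm1, which has roles in autophagy and in the control of other IRGs, was at 5.46, 4.80 and 5.13 FPKM in vehicle and at 100.1, 41.4 and 43.2 FPKM with nanoparticles. Its log2 change was 3.23 (SE 0.337, limma adjusted p = 9.04e-04), and 2.82 without nanoparticle library 1. Igtp went from 3.87, 3.47 and 3.29 FPKM to 74.1, 27.1 and 30.2 FPKM, which is 3.15 on the log2 scale (SE 0.370, limma adjusted p = 0.00138) and 2.70 without that library. Igtp lay below Irgm1 in level in every library. Irgm2, the neighbour of Igtp, was at 3.45, 3.62 and 2.78 FPKM in vehicle and at 44.8, 13.9 and 13.9 FPKM with nanoparticles. It rose by 2.34 (SE 0.443, limma adjusted p = 0.00852), and by 1.80 without library 1, and whether it differed from Igtp was not tested. In GENCODE M21, exons of Igtp and Irgm2 overlap by 162 bases on the same strand, and 11.8% and 7.83% of their 50-base stretches occur in transcripts of other genes, so their values are not fully separate.

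Ifi47, an IRG of the effector type, had the most even values among nanoparticle libraries. It was at 4.87, 4.20 and 4.59 FPKM in vehicle and at 97.8, 60.5 and 76.3 FPKM with nanoparticles. The log2 change was 3.81 (95% interval 3.37 to 4.25, limma adjusted p = 8.07e-05), and 3.64 without nanoparticle library 1. It was the single member in which library 1 lay less than 2-fold above the mean of libraries 2 and 3 (1.43-fold). Iigp1, an effector that coats the vacuoles of parasites and chlamydiae, was near the other extreme. It was at 0.113, 0.113 and 0.138 FPKM in vehicle, and at 48.9, 3.35 and 4.92 FPKM with nanoparticles, with library 1 at 11.8 times the mean of the others. The annotated length did not return whole reads for Iigp1, and the smallest whole numbers that its values allow are 7, 7 and 9 reads in the vehicle libraries. The log2 change was 3.28 (95% interval 1.14 to 5.41, limma adjusted p = 0.0315), and 2.18 (adjusted p = 3.88e-05) without nanoparticle library 1. The call was lost when any vehicle library was left out (limma adjusted p = 0.0928 to 0.0951) and with no filter on low values (0.0773), and over all alternatives the adjusted p ran from 3.88e-05 to 0.0951.

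**Figure D2:**
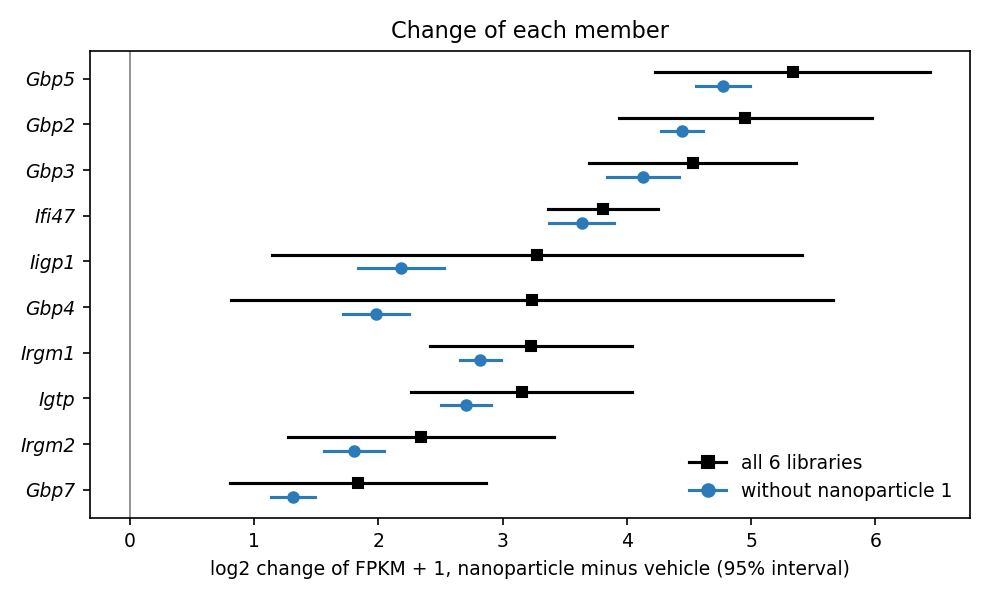
Log2 change of FPKM + 1 (nanoparticle minus vehicle) for each member with its 95% interval, black squares for all 6 libraries and blue circles without nanoparticle library 1. All intervals lie above 0, and those without nanoparticle library 1 are narrower and centred lower, from 1.31 (Gbp7) to 4.77 (Gbp5).

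The make-up of the family's transcripts differed between the groups. The 10 members summed to 64.2, 57.2 and 56.4 FPKM in vehicle and to 2526, 902 and 906 FPKM with nanoparticles. Nanoparticle libraries 2 and 3 were alike in this sum, at 15.3 times the vehicle mean, and library 1 stood at 42.6 times. Gbp2 made up 36.6, 37.1 and 36.1% of the sum in vehicle and 56.5, 54.8 and 54.0% with nanoparticles, without overlap. The share of Gbp5 was 2.42% ± 0.391 in vehicle and 7.61% ± 0.846 with nanoparticles (SD, n = 3 each). Conversely, the share of Gbp7 was 18.7% ± 0.542 in vehicle and 3.30% ± 0.223 with nanoparticles (SD, n = 3 each). That of Irgm2 was 5.55% ± 0.722 and 1.62% ± 0.137 (SD, n = 3 each). These shares are ratios within a library and do not depend on the scaling between libraries.

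By level per length, the order in vehicle was Gbp2, Gbp7, Gbp3, Irgm1, Ifi47, Igtp, Irgm2, Gbp5, Gbp4 and Iigp1. Of the 9 pairs of neighbours in this order, the pairs Irgm1 with Ifi47 and Igtp with Irgm2 had ranges over libraries that overlapped, and the other 7 did not. In nanoparticle libraries 2 and 3 the order was Gbp2, Gbp3, Ifi47, Gbp5, Irgm1, Gbp7, Igtp, Irgm2, Gbp4 and Iigp1, with overlap between Ifi47 and Gbp5, between Gbp7 and Igtp, and between Gbp4 and Iigp1. In nanoparticle library 1, Gbp4 was 7th and Irgm2 was last.

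Nanoparticle library 1 was the highest of its group for each of the 10 members, as it was for 42.3% of all tested genes. It lay at least 2-fold above the mean of nanoparticle libraries 2 and 3 in 9 members, and in 7.89% of all tested genes. Among the 1817 genes that rose past the threshold, 11.5% did so. So did 10 of the 12 tested other GBP, IRG and large GTPase genes (83.3%), so the excess was not particular to the members. With a single library on one side, this difference has no replicate check. The excess was unequal across members, with Gbp4 and Iigp1 at 16.3-fold and 11.8-fold, 7 members between 2.30-fold (Gbp3) and 3.23-fold (Gbp5), and Ifi47 at 1.43-fold. T and NK cells are known as sources of interferon-gamma. Their 10 marker genes summed to 0.0550 FPKM in nanoparticle library 1, 0.116 and 0.580 FPKM in the others, and 0.182 to 0.312 FPKM in vehicle, none reached 1 FPKM in any library, and 4 of them were listed at 0 in all nanoparticle libraries. The 9 macrophage markers summed to 1226 FPKM in nanoparticle library 1, 1006 and 1056 FPKM in the others and 1099.6 to 1244 FPKM in vehicle, and 0 of them were listed at 0 throughout a group. Of these, 3 rose (Adgre1 by 1.37, Fcgr1 by 0.99 and Cd68 by 0.67 on the log2 scale), each highest in library 1, and 4 fell (C1qa, C1qb, C1qc and Mrc1). When libraries were scaled to the same sum, 0 rose and 5 fell. Over all tested genes 17.0% rose and 16.2% fell, and 8.28% and 39.7% with that scaling. Adgre1 was at 276, 141 and 132 FPKM in nanoparticle libraries 1 to 3, 2.01-fold higher in the first. Of all 9 macrophage markers, 4 were highest in library 1 of that group, and their median log2 difference from libraries 2 and 3 was -0.39. By summed FPKM the macrophage list was thus higher in library 1 than in libraries 2 and 3, and within the vehicle range. By the median marker it was lower in library 1 than in libraries 2 and 3. The lower dendritic cell marker sum and the higher levels of Adgre1, Fcgr1 and Cd68 were seen in the same library as the members' excess. Their part in it was not tested.

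**Figure D3:**
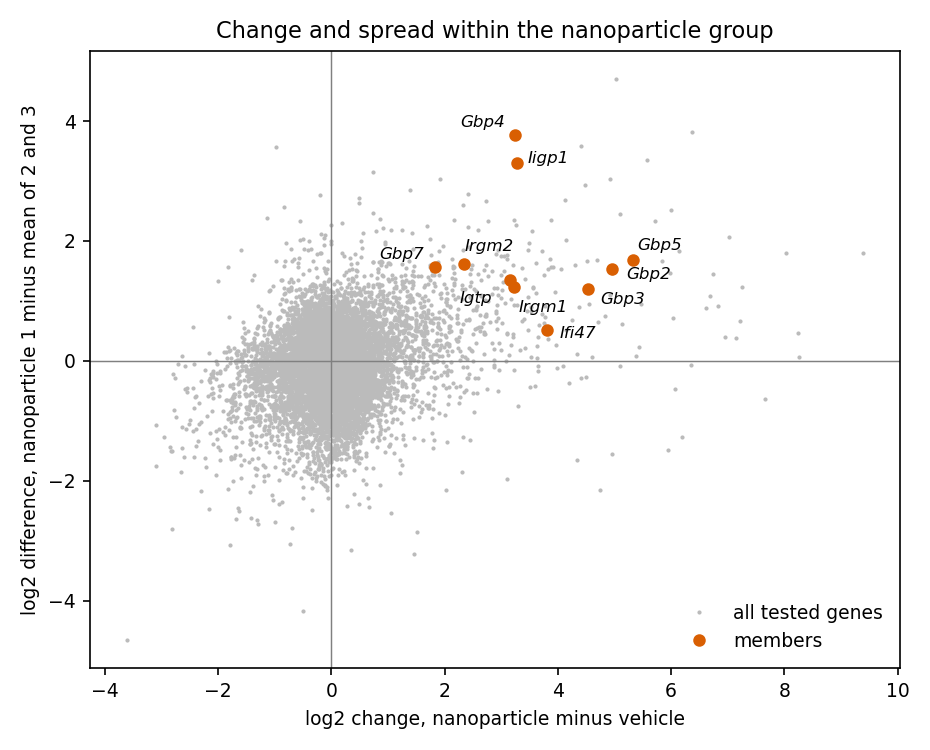
Each tested gene by its log2 change (nanoparticle minus vehicle, horizontal) and by the log2 difference of nanoparticle library 1 from the mean of nanoparticle libraries 2 and 3 (vertical), with the 10 members in orange. All members lie above 0 on both axes, Gbp4 and Iigp1 highest on the vertical one and Ifi47 lowest.

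The members lie in 5 regions of the genome (GENCODE M21, GRCm38). On chromosome 3, 5 Gbp genes lie on the plus strand between 142493978 and 142638008, in the order Gbp5, Gbp7, Gbp3, Gbp2b and Gbp2. Their mean FPKM in nanoparticle libraries 2 and 3 was 45.9, 2.62, 19.4, 8.65 and 22.7 times that of vehicle (the value of Gbp2b rests on 12, 8 and 16 vehicle reads), so Gbp7 had the lowest ratio and lay between genes with higher ones. On chromosome 5, Gbp4 lies on the minus strand from 105115767 to 105139586, and the annotated spans of Gbp8 and Gbp9 overlap it there, with log2 changes of 0.85 and 2.41. Chromosome 11 carries Irgm1 (minus strand, 48861968 to 48871683) and Ifi47 (plus strand, 49076587 to 49096974) in one cluster, and Igtp (plus strand, 58199556 to 58207591) and Irgm2 (plus strand, 58199618 to 58222782) in another. Iigp1 lies on the plus strand of chromosome 18.

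Of 18 other GBP, IRG and large GTPase genes, 12 passed the filter, with a median log2 change of 1.33. Of these 12, 6 rose, 0 fell and 6 did not pass the test, where 17.0% of all tested genes rose and 16.2% fell. Gbp2b, Gbp6, Tgtp2 and Gvin1, under 1 FPKM in each vehicle library, passed the filter only through the nanoparticle libraries. Leaving out nanoparticle library 1 gave 8 that rose and 3 that fell (both 9930111J21Rik genes and Irgq), with a median of 0.83. In that fit 34.3% of all tested genes rose and 30.5% fell, so falls were no more frequent among the relatives than among all tested genes. Gm12250, the gene of Irgb10, an IRG that acts on bacterial membranes, was at 4.02, 4.20 and 4.21 FPKM in vehicle and 71.0, 42.6 and 46.3 FPKM with nanoparticles (log2 change 3.36, limma adjusted p = 1.35e-04). Tgtp2, an effector IRG, was at 0.205, 0.429 and 0.391 FPKM in vehicle and rose by 3.26 on the log2 scale (limma adjusted p = 0.00820), and 86.6% of its 50-base stretches also occur elsewhere, mostly in Tgtp1. Gbp6 (3.11), Gm4951 (3.04), Gbp9 (2.41) and Gbp2b (1.75) also rose. The calls of Gbp9 (limma adjusted p = 0.0491) and Gbp2b (0.0236) were both lost when any vehicle library was left out (limma adjusted p = 0.125 to 0.132 and 0.0719 to 0.0805) and with no filter on low values (0.111 and 0.0616). That of Gbp9 was also lost when libraries were scaled to the same sum (0.0554). A share of 70.7% of the stretches of Gbp6 occurs in other transcripts.

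Among the 6 relatives that did not pass, Gvin1 and Irgc1 were higher in every nanoparticle library than in any vehicle library, and the other 4 were not. Of all tested genes, 25.9% were higher in this way, a share near that of these relatives. Gbp8 was at 3.13, 2.58 and 2.81 FPKM in vehicle and at 19.6, 3.001 and 3.03 FPKM with nanoparticles, so that libraries 2 and 3 lay within the vehicle range and library 1 was above it (log2 change 0.85, limma adjusted p = 0.349). The 9930111J21Rik1 gene was at 1.45, 1.57 and 1.79 FPKM in vehicle and at 4.28, 0.568 and 0.466 FPKM with nanoparticles. Its log2 change was -0.18 (limma adjusted p = 0.811) over all libraries and -0.78 (adjusted p = 7.84e-04) without nanoparticle library 1. For 9930111J21Rik2, which shares much of its sequence with it, these values were -0.13 and -0.81. Both lie in the chromosome 11 cluster between Irgm1 and Ifi47. Irgq and Irgc1, relatives not known as interferon-induced, had log2 changes of 0.03 and 0.28 and did not pass the test. Without nanoparticle library 1, Irgc1 passed as higher (0.38, limma adjusted p = 0.0122) and Irgq as lower (-0.30, limma adjusted p = 0.0233). When libraries were scaled to the same sum, the changes of Irgq and Irgc1 turned negative (-0.41 and -0.13). Gvin1, at 0.92, did not pass either, but it did without nanoparticle library 1 (0.45, limma adjusted p = 0.0207). A share of 99.2% of its stretches occurs in other transcripts. Of the 6 genes under the filter, Gbp10 had 0 reads in each vehicle library, 80 in nanoparticle library 1 and 1 in each of libraries 2 and 3, and Gbp11 had 4, 0 and 3 reads in vehicle and 137, 7 and 7 with nanoparticles. A share of 84.1% of the stretches of Gbp10 occurs in other transcripts, mostly in Gbp6, so its reads are uncertain.

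**Figure D4:**
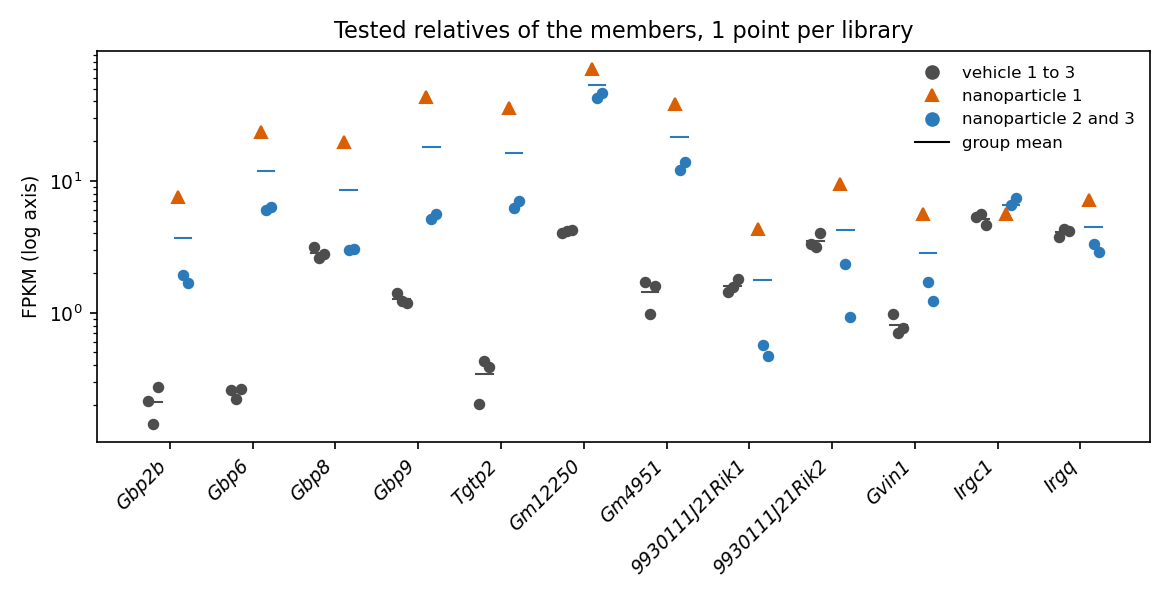
FPKM (log axis) of the 12 tested relatives in each library, with the same symbols as for the members. In Gbp8, both 9930111J21Rik genes and Irgq, nanoparticle library 1 lies above the vehicle libraries and nanoparticle libraries 2 and 3 within or below them.

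Interferon receptor genes changed by smaller amounts than the members. Of 5 tested, 4 rose and 1 fell, where 17.0% and 16.2% of all tested genes did. Ifnar2, a chain of the type I interferon receptor, went from 13.8, 12.7 and 12.2 FPKM to 42.2, 27.4 and 31.4 FPKM (log2 change 1.30, limma adjusted p = 0.00210). Ifngr2 (0.85), Il10rb (0.76) and Ifnar1 (0.71) also rose, and the call of Ifnar1 was lost when libraries were scaled to the same sum (0.27, limma adjusted p = 0.107). Ifngr1, the ligand-binding chain of the interferon-gamma receptor and named after its values were seen, fell from 22.3, 24.5 and 22.9 FPKM to 11.1, 12.6 and 14.8 FPKM (log2 change -0.81, limma adjusted p = 0.00385). Ifnb1, the gene of interferon-beta, had 5, 0 and 0 reads in vehicle and 8, 43 and 53 with nanoparticles. Nanoparticle library 1, the highest of its group for every member, was thus the lowest for Ifnb1, which was too low to be tested. Ifng was not among the 23398 genes with values, so its level is not known here.

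Signal transducers rose in 9 of 12 cases and fell in 0, with a median log2 change of 1.59. The shares of all tested genes were 17.0% and 16.2%. When libraries were scaled to the same sum, 8 transducers rose and 1 fell, against 8.28% and 39.7% of all tested genes. Irf1, a factor that binds Gbp promoters, went from 5.50, 5.59 and 5.65 FPKM to 38.3, 32.9 and 34.9 FPKM (2.46 on the log2 scale, limma adjusted p = 3.93e-05). Nanoparticle library 1 was 1.13 times the mean of libraries 2 and 3 for Irf1, a ratio below those of all 10 members. Irf7, a factor that amplifies type I interferon responses, was at 2.10, 1.88 and 1.95 FPKM in vehicle and 366, 106 and 124 FPKM with nanoparticles (log2 change 5.83), with library 1 at 3.18 times the mean of the others. Inhibitors of the pathway rose in 4 of 6 cases and fell in 0, and 3 rose and 2 fell with the same-sum scaling, against the same shares of all tested genes. Usp18, which blocks type I interferon receptor signalling, rose by 4.72 (limma adjusted p = 7.09e-05). Socs1, an inhibitor of JAK kinases, was at 16.9, 17.6 and 16.6 FPKM in vehicle and 64.8, 95.03 and 103 FPKM with nanoparticles, lowest in library 1 of that group. Socs3 and Ptpn2 rose by 2.33 and 0.68 on this scale, and the call of Ptpn2 was lost with the same-sum scaling (limma adjusted p = 0.152).

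**Figure D5:**
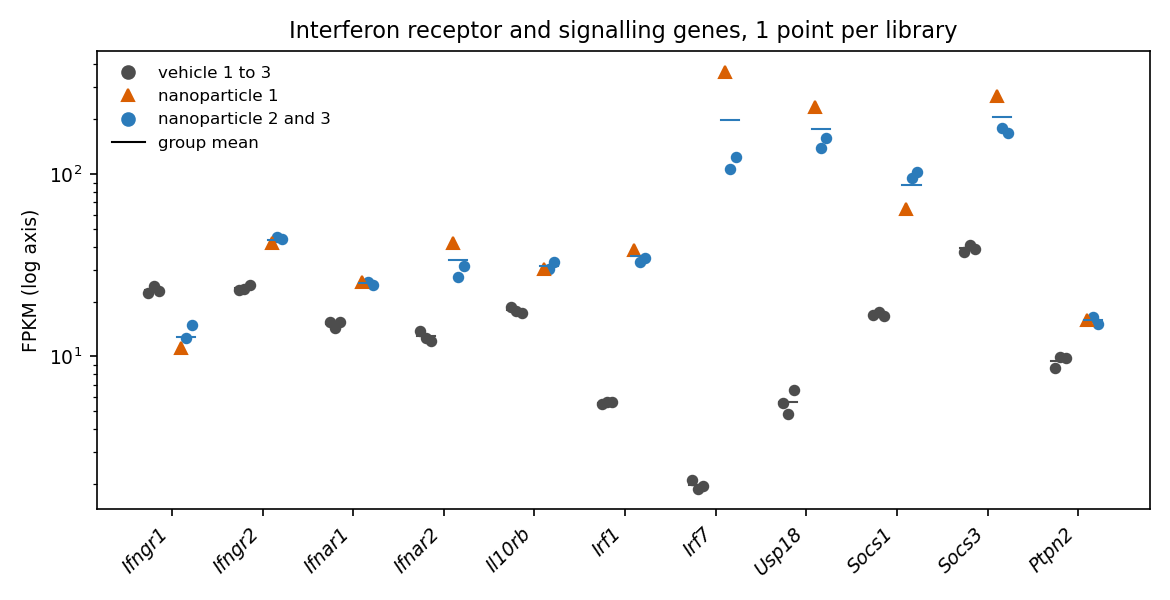
FPKM (log axis) of interferon receptor genes, transducers and inhibitors in each library, with the same symbols as for the members. For Irf1 the 3 nanoparticle libraries lie close together, while Irf7 is highest in nanoparticle library 1 and Socs1 lowest there.

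Genes that act with GBPs and IRGs were read from lists of their own. Over all tested genes, 17.0% rose and 16.2% fell, 34.3% and 30.5% without nanoparticle library 1, and 8.28% and 39.7% with the same-sum scaling. Of 10 autophagy conjugation genes, whose products direct GBPs and IRGs to their target membranes, Atg12 rose (0.62, limma adjusted p = 0.0158), Atg7 fell (-0.48, limma adjusted p = 0.0165) and 8 did not pass. Without nanoparticle library 1, 5 rose and 1 fell, and with the same-sum scaling 0 rose and 2 fell. Gabarap and Map1lc3b did not pass (limma adjusted p = 0.0596 and 0.0787). The ubiquitin and galectin genes of damaged vacuoles rose in 6 of 9 cases and fell in 1, against 4 and 1 with the same-sum scaling. Among them were Rnf213, a ubiquitin ligase, at a log2 change of 2.90, the autophagy receptor Sqstm1 at 2.61, the antibody receptor Trim21 at 2.18 and Lgals9 at 2.13. The gene that fell, Calcoco1 (-0.45), was named after its values were seen.

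Caspase-11 and inflammasome genes rose in 6 of 8 cases and fell in 0, against 3 and 1 with the same-sum scaling, where the shares of all tested genes were 17.0% and 16.2%, and 8.28% and 39.7%. Casp4, the gene of caspase-11, was at 1.95, 2.03 and 2.00 FPKM in vehicle and 51.3, 27.6 and 26.6 FPKM with nanoparticles (3.53 on the log2 scale, SE 0.252, limma adjusted p = 2.48e-04). Casp1 rose by 1.98, and Il1b by 8.26. Gsdmd, the gene of the pore protein gasdermin D, rose by 0.69, a call that was lost with the same-sum scaling (limma adjusted p = 0.0610). Among 8 prenylation genes, whose enzymes attach the lipid anchor that some GBPs carry, 0 passed limma's test at an adjusted p of 0.05, 1 higher and 1 lower at an unadjusted p under 0.05, with log2 changes between -0.29 and 0.29. Without nanoparticle library 1, 3 of these were higher and 3 lower past the threshold, and with the same-sum scaling 0 were higher and 3 lower, shares near those of all tested genes (34.3% and 30.5%, and 8.28% and 39.7%). Of 9 tested dynamin-superfamily relatives, the interferon-induced Mx1 (2.51) and Mx2 (3.62) rose, Mfn2 fell (-0.40, limma adjusted p = 0.0477), and 6 did not pass, among them Opa1 (-0.30). These 3 calls of 9 are near the 33.2% of all tested genes, and Mx2, at 0.597, 0.502 and 0.504 FPKM in vehicle, passed the filter only through the nanoparticle libraries.

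The genes whose profile over the 6 libraries was nearest to the median profile of the members, by root mean square distance of log2(FPKM + 1) centred on the vehicle mean, were H2-Q5 (distance 0.127), Slfn8 (0.159), Tgtp2 (0.186), Apol9b (0.201) and Procr (0.208). The median profile stood 4.74, 2.71 and 2.81 above the vehicle mean in nanoparticle libraries 1 to 3. Slfn8, a Schlafen family gene, was at 2.32, 2.42 and 2.31 FPKM in vehicle and at 69.7, 23.4 and 23.3 FPKM with nanoparticles. H2-Q5 is an MHC class I gene with closely similar relatives, so its value is uncertain. Procr, the endothelial protein C receptor gene, was at 73.4, 71.2 and 71.4 FPKM in vehicle and at 1464, 572 and 560.0 FPKM with nanoparticles.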

How the data were processed

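RNA was measured in 6 libraries. The submitters' processing notes name CASAVA, STAR 2.5, HTSeq, edgeR 3.16.5 and DESeq2 and the builds mm10 and hg19, without roles. The authors deposited 2 tables whose 140388 values were identical, read here as FPKM deposited by the authors because 95.8% to 96.1% of values above 0 became whole reads (within 0.01) when multiplied by GENCODE M21 exon length and a scale per library. How reads shared between paralogs, and the strand, were handled is not given in the sources used here. Genes that reached 1 FPKM in 3 or more libraries were fitted with limma 3.58.1 in R 4.3.3 on log2(FPKM + 1), a scale that understates changes of low genes, with group as the single term and eBayes with trend. P-values were adjusted by Benjamini and Hochberg, threshold 0.05. The fit was tested on simulated data in which both groups had the spread of the vehicle libraries. That test does not cover the wider spread of the nanoparticle group. Replicates differed beyond sampling noise (chi-square per degree of freedom at least 2.94). Reads lack molecular identifiers.

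The members, the gene lists and the tests were chosen with earlier results of these data known. Named were all members, the relatives, up to 4 genes of smallest adjusted p per other list, Ifng and Ifnb1, and the 5 genes with the nearest profile. Alternatives were a pseudocount of 0.1, no filter, a filter of 5 FPKM, scaling to the same sum, quantile normalization, no trend, library weights, the replicate number as a block, and leaving out each library; those for relatives and pathway genes were added after seeing the data. Stretches of 50 bases shared with other transcripts were counted in GENCODE M21. Figures were drawn with matplotlib 3.10.9 under Python 3.11.15.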

Additional observations from a re-analysis of the deposited data

How the results depend on the processing

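No member changed direction under any of the 14 alternatives. The count of members past the threshold ran from 8 (no filter, and the 5 FPKM filter, under which 8 were tested) to 10, and from 7 to 10 when 1 library was left out, 7 without any 1 vehicle library. The number of all genes past the threshold was 3550, from 2141 to 6923 when 1 library was left out and 7237 with library weights, where nanoparticle library 1 received a weight of 0.0437. These weights were estimated gene by gene because the default estimate did not converge. Of the other genes of the pathway, 42 passed, where 33.2% of all tested genes did. The count was 32 to 63 when 1 library was left out and 65 with library weights. Like the number of all genes, it was highest without nanoparticle library 1 and with library weights. Of the relatives, 6 rose past the threshold, 4 to 8 when 1 library was left out. Scaling to the same sum moved the split of calls over all genes from 1817 higher and 1733 lower to 884 and 4241, and 9 members passed, with Gbp4 gained and Gbp7 lost. Relatives that had not passed the test changed sign: Irgc1 (-0.13) and Irgq (-0.41) with that scaling, and Irgq with library weights (-0.25). When 1 library was left out, Irgq ran from -0.30 (without nanoparticle library 1) to 0.23, with -0.02 without vehicle library 1. The same range was -0.78 to 0.15 for 9930111J21Rik1 and -0.81 to 0.41 for 9930111J21Rik2, with 0.10 and 0.01 without nanoparticle library 2. The cause was not tested.

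With the replicate number as a block, 9 members, 6 relatives, 39 other pathway genes and 2785 genes in all passed. Deviations from the group mean of same-numbered libraries correlated across genes at 0.065, 0.11 and -0.058. Vehicle libraries 1 and 2 correlated best with the nanoparticle library of their own number, and vehicle library 3 did not. With 3 libraries per group, these values cannot show whether same-numbered libraries shared an animal or culture. Low reads in vehicle limit Gbp4 and Iigp1 and, among the relatives, Gbp2b (12, 8 and 16 reads), Tgtp2, Gbp6, Tgtp1, Gm4841, Gbp10 and Gbp11.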
